A study of Mus musculus with 10 samples.

Results

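Macrophages that settle in a tissue clear dying cells, aged red cells and debris there, and they differ from freshly recruited monocytes in the surface receptors they carry. In bone marrow they form the centre of erythroblastic islands, where they engulf expelled nuclei and recycle heme iron, and they sit next to the niches that hold stem cells. Their genes include the receptor for the growth factor CSF1, scavenger receptors, receptors that recognise phosphatidylserine on dying cells, complement components and exporters of iron.

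A list of 36 gene names of this kind was examined in marrow arrays. The names were taken for what the genes are known for, with no rule on measured values, but earlier results of these data were known when the list was made. A gene was represented by the probe set that carried exactly 1 gene symbol and had the highest mean, and 34 of the 36 names were found among 19938 genes represented this way. The name Emr1, the older symbol of Adgre1, had no such probe set, and its gene is analysed as Adgre1. Slc11a1, a metal transporter of the phagosome, had none either and is not analysed here. The 34 genes fell into 10 lineage receptors and other surface genes, 3 transcription factors, and 7 scavenger receptors and related genes. The rest were 6 of dying-cell uptake (efferocytosis), 5 of complement and pattern-recognising lectins, 2 of iron and heme and 1 of prostaglandin breakdown.

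The arrays asked whether marrow rebuilt from fetal liver hematopoietic stem cells (HSCs) differed according to the vitamin D status of the dam that carried the donor embryo. The VD(-) group held marrow of C57BL6 recipients of HSCs from vitamin D-deficient embryos, and the VD(+) group held marrow of C57BL6 recipients of HSCs from vitamin D-sufficient embryos. All recipients had been irradiated and were themselves vitamin D sufficient, and the labels give mice of both sexes at 8 weeks. The paper's results and a figure legend give different times after transplant for the marrow arrays. The methods give recipients as 8 weeks old at transplant, so the 8 weeks would not be their age when marrow was taken. Whether they are the age at transplant or a time after it is not settled. Each group had 5 arrays, of which 3 were single samples (replicates 1, 2 and 3) and 2 were pools (pools 1 and 2). Neither the labels nor the methods state which mice entered a pool, so the p-values below measure the spread between arrays, part of which may be technical. Some macrophages of an irradiated host can survive, and these arrays cannot tell host from donor RNA. The labels name the material both as marrow and as marrow macrophages, and markers of other marrow cells were measured at high levels on every array. The mean log2 signal of 14 neutrophil genes was between 11.2 and 11.6, led by S100a9, Camp and S100a8, and that of 12 erythroid genes was between 9.18 and 9.47, led by Car2, Slc4a1 and Alas2. In such mixed RNA, a change in the number of macrophages and a change in the RNA of each macrophage cannot be told apart.

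Values are log2 intensities after robust multi-array averaging (RMA), so a difference of 1 is a doubling. Median signals of the arrays ran from 4.74 to 4.80, and the correlations of array pairs ranged from 0.980 to 0.989. Several arrays stood apart in ways that touch the macrophage genes. The mean of the Y-linked genes reached 6.64 (replicate 1), 6.80 (pool 1) and 5.31 (pool 2) in 3 VD(-) arrays, against 2.25 to 2.56 in the other 7 arrays. Xist, which is expressed from the inactive X chromosome, was 7.76, 8.14 and 9.83 in those 3 arrays and 10.08 to 10.33 in the others, so the sex of the cells varied within the VD(-) group only. VD(-) pool 1 was the highest of the 10 arrays in 18 of the 34 macrophage genes (52.9%, against 12.7% of all genes). VD(+) replicate 1 was the lowest of the 10 arrays in 20 of the 34 (58.8%, against 16.7% of all genes). The log2 fold change without both of these arrays is given beside each gene in which it moved by over 1.5 times, in either direction.

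Of the 34 macrophage genes, 9 were higher and 1 was lower in VD(-) than in VD(+) marrow, taking an unadjusted limma p under 0.05 (two-sided) as the nominal call, against backgrounds of 4.05% of all genes higher and 2.95% lower. The higher genes were Msr1, Maf, Gpnmb, Cd68, Itgad, Vsig4, Fcna, Timd4 and Cd300a, and the lower gene was Hpgd. None of the 34 passed an adjusted p under 0.05, a threshold that 0.0903% of all genes passed. The plain t-test that the methods name gave 7 genes higher and 1 lower at a nominal p under 0.05 (4.27% and 3.29% of all genes), and none after adjustment. In 5 genes (Cd68, Cd300a, Maf, Msr1 and Vsig4) every VD(-) array lay above every VD(+) array, against 1.09% of all genes, and in no gene did every VD(-) array lie below every VD(+) array, against 0.632%. The log2 fold change (VD(-) less VD(+)) was above 0 in 30 of the 34, against 50.3% of all genes, and its median was 0.17, against 0.0010 over all genes. Without VD(-) pool 1 that median was 0.10. It was 0.052 with both VD(-) pool 1 and VD(+) replicate 1 (the 2 extreme arrays) left out. It was 0.072 when only the 2 VD(-) arrays without Y-linked signal were set against the VD(+) arrays. In that last setting 4 genes were higher and 1 was lower (3.08% and 2.64% of all genes). There, 7 of the 10 nominal calls were lost, and Siglec1 (higher) and Cd5l (lower) gained one. With only 2 VD(-) arrays that fit is less precise. A call can be lost there although the fold change is no smaller, as in Vsig4.

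**Figure D1:**
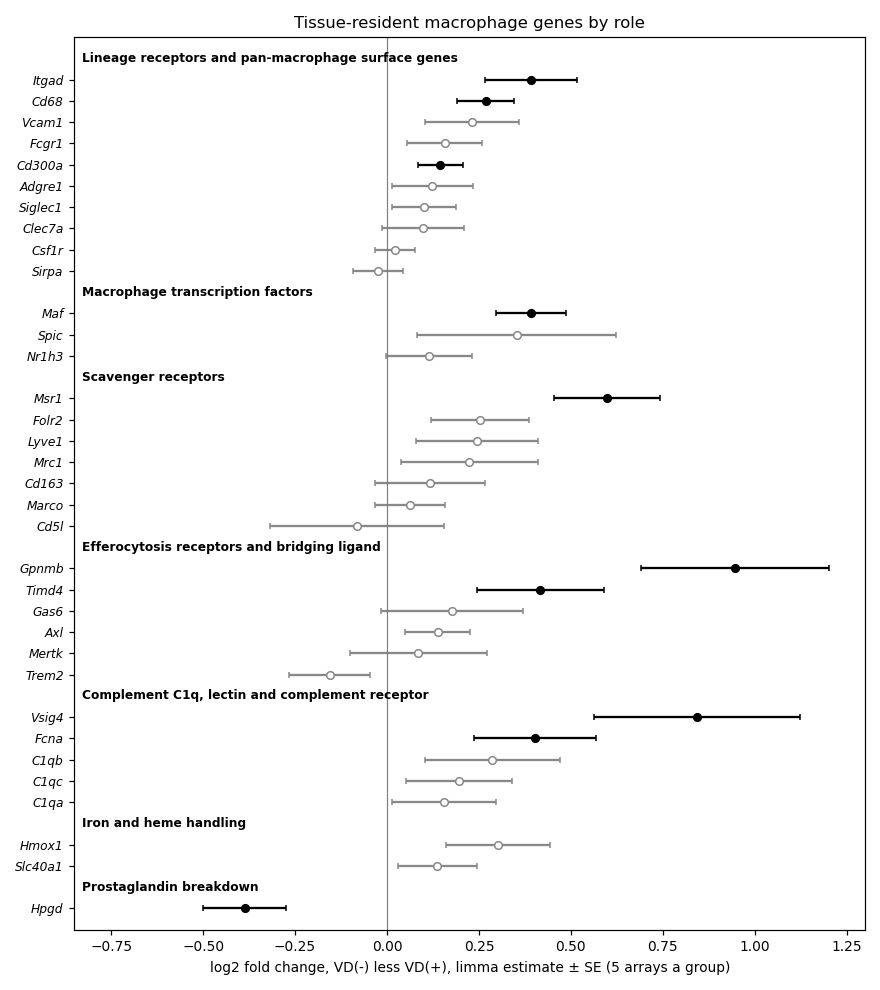
Log2 fold change of each of the 34 macrophage genes (x axis, VD(-) less VD(+), limma estimate with its standard error, 5 arrays a group), grouped by role; filled symbols mark a nominal p under 0.05. Of the 34 symbols 30 lie right of 0, from 0.022 for Csf1r to 0.95 for Gpnmb, whose VD(+) signal cannot be told from background, and Hpgd, at -0.39, lies farthest to the left.

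Stretches upstream of these genes were read to show what the members share in sequence. RefSeq promoters (GRCm38.p6, 250 bases before to 50 bases after a start site) were on hand for 22 of the 34 genes and for 7 of the 10 with a nominal p under 0.05. The 12 others were Adgre1, C1qa, Csf1r, Hmox1, Itgad, Lyve1, Maf, Msr1, Siglec1, Sirpa, Slc40a1 and Vcam1. The motif GAGGAA, the core bound by the myeloid factor PU.1 and by other ETS factors, was found on either strand in the promoter of 15 of these 22 genes (68.2%), against 31.3% of the 27025 genes with a promoter. The motif TGANTCA (AP-1) was found in 4 of the 22 (18.2%, against 9.0%), TGCTGA (one side of the site bound by MAF factors) in 7 (31.8%, against 21.7%) and CACGTG (an E-box) in none (against 8.1%). No match of one motif overlapped a match of another in these promoters, and a match is a string of letters and not a measured binding site. The promoters below are those of genes that carried the comparison and differed in GAGGAA content, with its matches in capitals, read 5′ to 3′ on the strand of the gene. Cd68 and Vsig4 are shown because their groups did not overlap, Fcna because it held the most matches, Gpnmb because it had a nominal call and no match, and Hpgd because it was the lower gene.
Cd68, chr11:69666121-69666420, minus strand: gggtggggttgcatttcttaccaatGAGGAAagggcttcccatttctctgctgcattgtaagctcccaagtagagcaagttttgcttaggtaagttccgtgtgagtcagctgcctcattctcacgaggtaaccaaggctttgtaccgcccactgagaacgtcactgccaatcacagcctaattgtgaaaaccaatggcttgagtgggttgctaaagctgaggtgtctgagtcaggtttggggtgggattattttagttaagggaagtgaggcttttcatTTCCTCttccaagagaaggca
Vsig4, chrX:96293389-96293688, minus strand: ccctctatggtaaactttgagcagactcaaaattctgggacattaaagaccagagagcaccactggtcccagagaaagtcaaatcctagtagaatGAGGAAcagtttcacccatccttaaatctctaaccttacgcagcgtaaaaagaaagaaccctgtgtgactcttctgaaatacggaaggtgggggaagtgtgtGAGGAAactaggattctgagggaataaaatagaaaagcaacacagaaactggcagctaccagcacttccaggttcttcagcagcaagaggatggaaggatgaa
Fcna, chr2:25627925-25628224, minus strand: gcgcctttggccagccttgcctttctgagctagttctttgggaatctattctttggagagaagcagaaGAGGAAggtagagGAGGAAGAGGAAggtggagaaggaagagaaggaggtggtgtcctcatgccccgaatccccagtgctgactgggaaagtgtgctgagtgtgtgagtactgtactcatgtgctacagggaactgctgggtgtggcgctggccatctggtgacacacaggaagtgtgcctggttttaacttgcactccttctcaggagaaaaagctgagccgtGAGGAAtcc
Gpnmb, chr6:49036268-49036567, plus strand: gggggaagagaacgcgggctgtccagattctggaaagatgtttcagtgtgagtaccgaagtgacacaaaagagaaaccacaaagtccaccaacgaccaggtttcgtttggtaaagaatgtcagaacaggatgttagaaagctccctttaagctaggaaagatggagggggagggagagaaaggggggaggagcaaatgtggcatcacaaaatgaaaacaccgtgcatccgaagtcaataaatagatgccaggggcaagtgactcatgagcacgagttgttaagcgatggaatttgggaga
Hpgd, chr8:56294302-56294601, plus strand: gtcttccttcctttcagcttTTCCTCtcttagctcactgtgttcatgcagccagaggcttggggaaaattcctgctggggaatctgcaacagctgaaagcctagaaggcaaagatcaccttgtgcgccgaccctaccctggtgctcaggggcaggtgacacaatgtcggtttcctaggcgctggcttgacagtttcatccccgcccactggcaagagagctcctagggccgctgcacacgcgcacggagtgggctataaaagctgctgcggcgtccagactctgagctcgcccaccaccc
The Cd68 promoter held GAGGAA at -225 and 29 relative to the start site (first base of the match, negative upstream), that of Vsig4 at -155 and -53, that of Hpgd at -230, and that of Fcna at -182, -169, -163 and 41. Among the genes with a nominal p under 0.05 the motif was present in Cd68, Vsig4, Fcna, Hpgd and Cd300a and not found in Gpnmb or Timd4, so it occurred in genes that were higher and in the gene that was lower. Gpnmb had a TGANTCA match at 8 and Cd68 had TGANTCA at -149 and -24.

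Of the 10 lineage receptors and surface genes, 3 were higher at a nominal p under 0.05 and none was lower, with a median log2 fold change of 0.13 (0.071 without the 2 extreme arrays). In what follows, 5 values of a group are in the order replicates 1, 2 and 3, pool 1 and pool 2. Cd68, a lysosomal glycoprotein of phagocytes, was 8.46, 8.75, 8.73, 8.75 and 8.72 in the VD(+) arrays and 8.94, 8.91, 9.02, 9.04 and 8.83 in the VD(-) arrays. The groups did not overlap, and the lowest VD(-) array was only slightly above the highest VD(+) array. The log2 fold change of Cd68 was 0.27 (SE 0.078; limma p = 0.0058, adjusted p = 0.482; exact permutation p = 0.0079, the smallest that 5 arrays against 5 allow). It was 0.19 without the 2 extreme arrays and 0.28 without the arrays carrying Y-linked signal.

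Itgad, the integrin alpha D chain of splenic and other resident macrophages, was 6.25, 6.72, 6.88, 6.58 and 6.81 in the VD(+) arrays and 6.91, 6.83, 7.08, 7.20 and 7.18 in the VD(-) arrays. VD(+) replicate 3 reached into the VD(-) range, and the log2 fold change was 0.39 (SE 0.126; limma p = 0.0104, adjusted p = 0.545; exact permutation p = 0.0159). A second probe set of Itgad pointed the other way, with values of 6.01, 5.92, 6.11, 6.15 and 6.13 in the VD(+) arrays, 5.99, 5.79, 5.81, 5.92 and 6.05 in the VD(-) arrays, and a log2 fold change of -0.15 without a nominal call. With both probe sets averaged, Itgad gave 0.12 and no nominal call, so its call belongs to 1 of its probe sets. That probe set gave 0.25 without the 2 extreme arrays, still with a nominal call, and 0.31 without the arrays carrying Y-linked signal, where the call was lost.

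Cd300a, an inhibitory receptor for lipids of dying cells, was 7.54, 7.62, 7.50, 7.65 and 7.58 in the VD(+) arrays and 7.69, 7.70, 7.85, 7.68 and 7.70 in the VD(-) arrays. The groups did not overlap, but they nearly touched, and VD(-) replicate 3 stood above its group. The log2 fold change was 0.15 (SE 0.062; limma p = 0.0395, adjusted p = 0.683; exact permutation p = 0.0079). It lost its nominal call in 7 of 10 fits with 1 array left out, among them those without VD(+) replicate 1 (0.14), VD(+) replicate 3 (0.13), VD(+) pool 2 (0.15) and each VD(-) array other than pool 1 (0.11 to 0.15), and with the replicate number as a block.

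The other 7 surface genes had no nominal call. Csf1r, the receptor that macrophages need for survival, was between 7.70 and 7.83 in the VD(+) arrays and between 7.75 and 7.82 in the VD(-) arrays, with a log2 fold change of 0.022 (95% interval -0.10 to 0.14), and 0.035 without the 2 extreme arrays. Adgre1, which encodes the adhesion receptor that most often marks mouse macrophages, was 7.16, 7.64, 7.36, 7.42 and 7.36 in the VD(+) arrays and 7.46, 7.60, 7.27, 7.76 and 7.47 in the VD(-) arrays, with a log2 fold change of 0.12 (SE 0.110; exact permutation p = 0.302). Vcam1, an adhesion molecule that island macrophages share with stroma, was 10.03 to 10.54 in the VD(+) arrays and 10.37 to 10.97 in the VD(-) arrays (0.23; exact permutation p = 0.151). Both genes overlapped widely between groups. Without the 2 extreme arrays the log2 fold change was 0.004 for Adgre1 and 0.054 for Vcam1, whose lowest array by far was VD(+) replicate 1, and without the arrays carrying Y-linked signal it was 0.044 and 0.073. Fcgr1, the high-affinity IgG receptor CD64, was 6.10 to 6.56 and 6.37 to 6.49 (0.16; exact permutation p = 0.151), and without VD(+) pool 1 its log2 fold change was 0.23, with a nominal call. Siglec1, the sialic acid receptor CD169, was 6.38 to 6.54 and 6.34 to 6.80 (0.10; exact permutation p = 0.278), and in the arrays without Y-linked signal it was 0.27, with a nominal call. Clec7a, the beta-glucan receptor dectin 1, was 6.77 to 7.29 and 7.05 to 7.34 (0.10; exact permutation p = 0.429), with 0.015 without the 2 extreme arrays. Sirpa, which receives the CD47 signal that spares healthy cells, was 9.27 to 9.45 and 9.22 to 9.44 (-0.025; exact permutation p = 0.651), with 0.028 without the 2 extreme arrays.

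**Figure D2:**
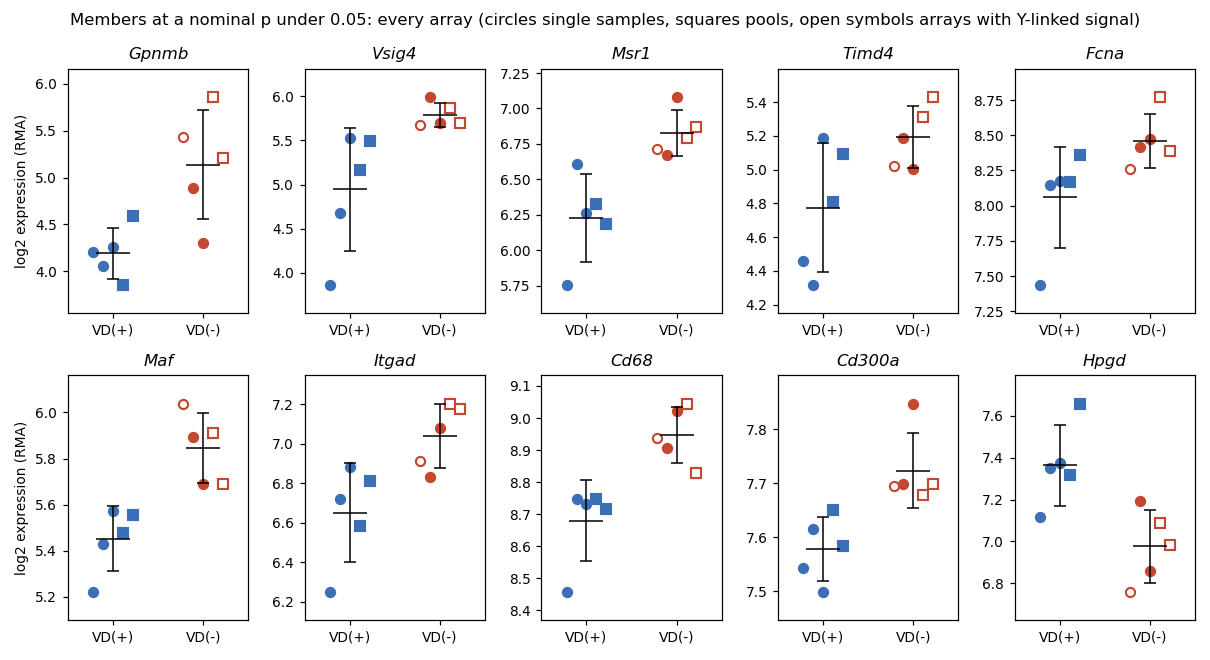
Log2 expression (y axis, RMA) of the 10 macrophage genes with a nominal p under 0.05 in every VD(+) and VD(-) array, with circles for single samples, squares for pools, open symbols for arrays with Y-linked signal, and bars for the mean ± SD of 5 arrays. The groups do not overlap for Vsig4, Msr1, Maf, Cd68 and Cd300a, and Hpgd is the 1 panel in which the VD(-) mean lies lower.

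All 3 transcription factors had a log2 fold change above 0, and 1 of them had a nominal call. Maf, which drives the mature, non-dividing state of resident macrophages, was 5.22, 5.43, 5.57, 5.48 and 5.56 in the VD(+) arrays and 6.04, 5.89, 5.69, 5.91 and 5.69 in the VD(-) arrays. Its groups did not overlap, and the log2 fold change was 0.39 (SE 0.095; limma p = 0.0018, adjusted p = 0.308; exact permutation p = 0.0079). It was 0.32 without the 2 extreme arrays and 0.34 without the arrays carrying Y-linked signal, and it kept its nominal call in 10 of 10 fits with 1 array left out. Spic, the factor that heme induces in red pulp and marrow macrophages, was 6.75, 7.19, 7.83, 7.05 and 7.94 in the VD(+) arrays and 8.00, 7.62, 7.18, 8.32 and 7.41 in the VD(-) arrays. Its values spread widely within each group, and the log2 fold change of 0.35 was little more than its standard error (SE 0.270; exact permutation p = 0.270). VD(+) replicate 1 was its lowest array and VD(-) pool 1 its highest, and the log2 fold change of Spic was 0.20 without VD(-) pool 1, 0.20 without VD(+) replicate 1, 0.049 without both and 0.050 without the arrays carrying Y-linked signal. Nr1h3, which encodes the oxysterol receptor LXR alpha, was 4.81 to 5.32 in the VD(+) arrays and 4.88 to 5.29 in the VD(-) arrays (0.11; exact permutation p = 0.397), with 0.021 without the 2 extreme arrays.

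Of the 7 scavenger receptors and related genes, 6 had a log2 fold change above 0 and 1, Msr1, had a nominal call. Msr1, the class A scavenger receptor for modified lipoproteins and bacteria, was 5.75, 6.61, 6.26, 6.33 and 6.19 in the VD(+) arrays and 6.71, 6.67, 7.08, 6.79 and 6.87 in the VD(-) arrays. The groups did not overlap, although VD(+) replicate 2 came close to the lowest VD(-) array. Msr1 had a log2 fold change of 0.60, a 1.51-fold difference (SE 0.144; limma p = 0.0018, adjusted p = 0.308; exact permutation p = 0.0079). Among the 10 genes with a nominal call, Msr1 was the 1 gene that kept it with the single samples alone (0.61), with the pools alone (0.58), with the Y-linked and Xist signal as a covariate (0.67), without the arrays carrying Y-linked signal (0.65), without the 2 extreme arrays (0.49) and with each array left out in turn (0.48 to 0.69).

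Mrc1, Cd163 and Cd5l, which are often used to name resident macrophages, had no nominal call. Mrc1, the mannose receptor CD206, was 8.22, 8.76, 8.90, 8.77 and 8.77 in the VD(+) arrays and 9.15, 8.80, 8.47, 9.43 and 8.70 in the VD(-) arrays. The high values were VD(-) pool 1 and VD(-) replicate 1, both with Y-linked signal, and the log2 fold change was 0.22 (SE 0.187; exact permutation p = 0.333). It was -0.054 without the arrays carrying Y-linked signal and -0.023 without the 2 extreme arrays. Cd163, the receptor for hemoglobin bound to haptoglobin, was 6.84, 6.76, 7.45, 7.17 and 7.33 in the VD(+) arrays and 7.35, 6.98, 7.11, 7.49 and 7.21 in the VD(-) arrays (0.12; exact permutation p = 0.484), and its log2 fold change was also below 0 in both of those settings (-0.067 and -0.016). Cd5l, a secreted scavenger protein of LXR-dependent macrophages, was 6.22, 6.63, 6.81, 6.86 and 6.85 in the VD(+) arrays and 6.76, 6.04, 6.33, 7.43 and 6.41 in the VD(-) arrays (-0.082; exact permutation p = 0.786). VD(-) pool 1 was the highest and VD(-) replicate 2 the lowest array for Cd5l, and without the 3 arrays carrying Y-linked signal its log2 fold change was -0.49, with a nominal call. Without the 2 extreme arrays it was -0.41, also with a nominal call.

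Marco, Folr2 and Lyve1 were the remaining genes of this group. Marco, a receptor for particles and bacteria, was 3.72 to 4.15 in the VD(+) arrays and 3.92 to 4.15 in the VD(-) arrays (0.063; exact permutation p = 0.50). Folr2, the folate receptor beta, was 3.82 to 4.26 and 3.94 to 4.69 (0.25; exact permutation p = 0.119), with 0.34 and a nominal call without VD(-) replicate 2. The mean signals of Marco, Folr2 and Gpnmb lay below the median of all probe sets, and the other 31 lay above it. The table has no detection calls, so the signal of Marco and Folr2 cannot be told from background. The same holds for Gpnmb in the VD(+) arrays and in VD(-) replicate 3. Lyve1, a hyaluronan receptor shared with lymphatic endothelium, was 4.52 to 5.31 and 4.85 to 5.51 (0.25; exact permutation p = 0.230), with 0.37 without VD(+) replicate 1 and 0.42 without both extreme arrays, each with a nominal call.

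In the efferocytosis group, 2 of 6 genes were higher at a nominal p under 0.05, Gpnmb and Timd4. Gpnmb, a glycoprotein of phagocytes and osteoclasts that acts in the handling of engulfed material, was 4.21, 4.05, 4.26, 3.85 and 4.59 in the VD(+) arrays and 5.43, 4.89, 4.30, 5.86 and 5.21 in the VD(-) arrays. The 3 highest arrays were the 3 with Y-linked signal, and VD(-) replicate 3 lay within the VD(+) range. The VD(+) mean of 4.19 lay below the median of all probe sets (4.74), so the VD(+) level cannot be told from background and the size of the difference is not known. As measured, Gpnmb had a log2 fold change of 0.95 (SE 0.256; limma p = 0.0037, adjusted p = 0.427; exact permutation p = 0.0159). Without those 3 arrays it was 0.40, and with the Y-linked and Xist signal as a covariate it was 0.43, and the nominal call was lost in both. The part of cell sex in Gpnmb cannot be told apart from that of the other differences between the VD(-) arrays.

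Timd4, the phosphatidylserine receptor TIM-4 of long-lived resident macrophages, was 4.46, 4.32, 5.19, 4.81 and 5.09 in the VD(+) arrays and 5.02, 5.19, 5.01, 5.31 and 5.43 in the VD(-) arrays. VD(+) replicates 1 and 2 lay under the median of all probe sets (4.74), so their values cannot be told from background. The other VD(+) arrays overlapped the VD(-) arrays or lay close to them. The log2 fold change was 0.42 (SE 0.172; limma p = 0.0343, adjusted p = 0.671), and the exact permutation p was 0.0714. The nominal call was lost in 6 of 10 fits with 1 array left out, namely those without VD(+) replicate 1 (0.34), VD(+) replicate 2 (0.30), VD(+) pool 1 (0.43), VD(-) replicate 2 (0.42), VD(-) pool 1 (0.39) and VD(-) pool 2 (0.36).

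The TAM receptors and their ligand had no nominal call. Axl, a receptor kinase for the bridging ligand GAS6, was 7.19, 7.28, 7.36, 7.34 and 7.42 in the VD(+) arrays and 7.48, 7.32, 7.42, 7.72 and 7.33 in the VD(-) arrays (0.14; exact permutation p = 0.127), with 0.039 without the 2 extreme arrays. Mertk, the receptor kinase of the same family on resident macrophages, was 6.09, 6.19, 6.82, 6.28 and 6.66 in the VD(+) arrays and 6.76, 6.14, 6.26, 6.93 and 6.37 in the VD(-) arrays (0.085; exact permutation p = 0.643). Mertk was thus as variable within a group as between groups, and its log2 fold change was -0.026 without VD(-) pool 1, -0.10 without both extreme arrays and -0.21 without the arrays carrying Y-linked signal. Gas6, the ligand, was 7.30, 6.53, 7.51, 6.96 and 7.23 in the VD(+) arrays and 7.44, 6.86, 7.11, 7.61 and 7.39 in the VD(-) arrays (0.18; exact permutation p = 0.437). Trem2, a lipid receptor of phagocytes, was 5.37 to 5.66 in the VD(+) arrays and 5.08 to 5.58 in the VD(-) arrays, with a log2 fold change of -0.16 (exact permutation p = 0.214).

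Each of the 5 complement and lectin genes had a log2 fold change above 0, with a median of 0.29, and 2 of them, Vsig4 and Fcna, had a nominal call. That median was 0.17 without VD(+) replicate 1, 0.15 without VD(-) pool 1, 0.034 without both (4 of 5 above 0) and 0.072 without the arrays carrying Y-linked signal (3 of 5 above 0). Vsig4, the complement receptor CRIg that binds C3b-coated particles, was 3.86, 4.68, 5.53, 5.17 and 5.49 in the VD(+) arrays and 5.67, 5.995, 5.70, 5.87 and 5.70 in the VD(-) arrays. The VD(-) arrays lay within a narrow band above every VD(+) array, while the VD(+) arrays spread widely below it, with replicates 1 and 2 under the median of all probe sets. The values of those replicates cannot be told from background, so the size of the difference is uncertain. As measured, the log2 fold change was 0.84, a 1.79-fold difference (SE 0.279; limma p = 0.0121, adjusted p = 0.560; exact permutation p = 0.0079). Without VD(+) replicate 1, its lowest array, it was 0.57, still with a nominal call, and without both extreme arrays it was 0.55. Vsig4 lies on the X chromosome, and without the arrays carrying Y-linked signal its log2 fold change was 0.90 and the nominal call was lost.

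Fcna, ficolin A, a soluble lectin that starts the complement cascade on microbial sugars, was 7.44, 8.15, 8.18, 8.17 and 8.36 in the VD(+) arrays and 8.26, 8.41, 8.47, 8.77 and 8.39 in the VD(-) arrays. VD(+) replicate 1 was far below all others, and VD(+) pool 2 lay above the lowest VD(-) array. Its fold change on the log2 scale was 0.40 (SE 0.165; limma p = 0.0337, adjusted p = 0.671; exact permutation p = 0.0159). It was 0.25 without VD(+) replicate 1, still with a nominal call, and it lost that call without VD(-) replicate 3 (0.40), without VD(-) pool 1 (0.32) and without both extreme arrays (0.17).

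The C1q chains, which resident macrophages secrete as the first component of the classical pathway, are encoded side by side in the order C1qb, C1qc and C1qa on chromosome 4, and they shared their extreme arrays. C1qa was 7.59, 7.68, 7.91, 7.83 and 8.12 in the VD(+) arrays and 8.08, 7.70, 7.85, 8.40 and 7.88 in the VD(-) arrays (0.16; exact permutation p = 0.341). C1qb was 6.90, 7.42, 7.49, 7.25 and 7.76 in the VD(+) arrays and 7.71, 7.51, 7.36, 8.19 and 7.48 in the VD(-) arrays (0.29; exact permutation p = 0.222). C1qc was 8.77, 9.03, 9.16, 8.99 and 9.13 in the VD(+) arrays and 9.30, 9.07, 8.88, 9.70 and 9.10 in the VD(-) arrays (0.20; exact permutation p = 0.270). In all 3 chains VD(+) replicate 1 was the lowest array and VD(-) pool 1 the highest, and the other arrays of the 2 groups overlapped. Without the arrays carrying Y-linked signal the log2 fold change was -0.050 for C1qa, 0.072 for C1qb and -0.042 for C1qc. Without the 2 extreme arrays it was -0.0083 for C1qa, 0.034 for C1qb and 0.010 for C1qc.

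**Figure D3:**
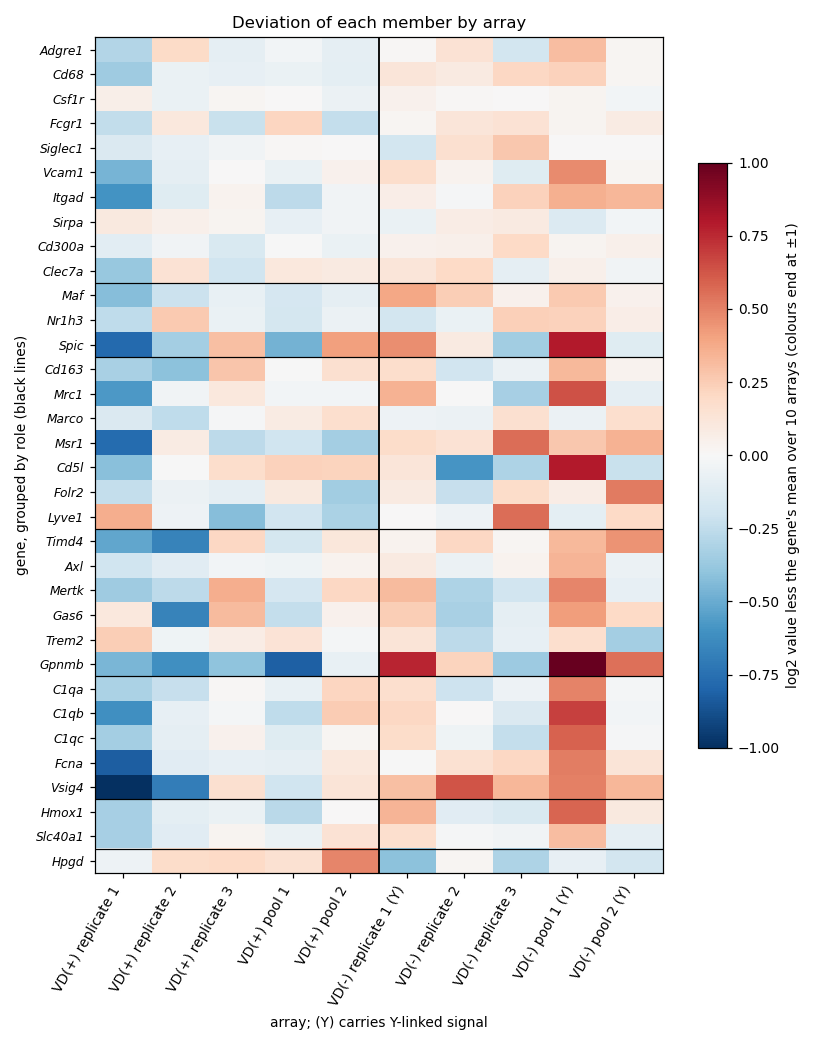
Deviation of each macrophage gene (rows, grouped by role) in each array (columns) from its own mean over the 10 arrays, in log2 units, with colours ending at 1 in either direction; arrays with Y-linked signal are marked (Y). VD(+) replicate 1 is the lowest array in 20 of 34 rows and VD(-) pool 1 the highest in 18, while Csf1r and Sirpa stay pale across all arrays.

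Neither iron gene had a nominal call. Hmox1, heme oxygenase, which releases iron from the heme of engulfed red cells, was 10.30, 10.53, 10.56, 10.36 and 10.63 in the VD(+) arrays and 10.97, 10.52, 10.48, 11.21 and 10.72 in the VD(-) arrays. VD(-) replicate 1 and VD(-) pool 1, both with Y-linked signal, were the highest, and VD(-) replicates 2 and 3 lay within the VD(+) range. On the log2 scale the difference was 0.30 (SE 0.141; exact permutation p = 0.0952), and it was 0.37 without VD(-) replicate 2 and 0.38 without VD(-) replicate 3, with a nominal call in both. It was 0.19 without VD(-) pool 1, 0.15 without both extreme arrays and 0.019 without the arrays carrying Y-linked signal, with no nominal call in any of these. Slc40a1, the iron exporter ferroportin, was 8.00, 8.22, 8.36, 8.27 and 8.48 in the VD(+) arrays and 8.50, 8.32, 8.30, 8.64 and 8.24 in the VD(-) arrays (0.14; exact permutation p = 0.254), with 0.0091 without the 2 extreme arrays and 0.045 without the arrays carrying Y-linked signal.

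Hpgd, the enzyme that inactivates prostaglandins, was the 1 gene of the 34 that was lower at a nominal p under 0.05. It was 7.12, 7.35, 7.37, 7.32 and 7.66 in the VD(+) arrays and 6.76, 7.19, 6.86, 7.09 and 6.98 in the VD(-) arrays. VD(+) replicate 1, again the lowest VD(+) array, lay below VD(-) replicate 2, and otherwise the groups were apart. VD(-) less VD(+) came to -0.39 (SE 0.112; limma p = 0.0057, adjusted p = 0.482; exact permutation p = 0.0159), and it ranged from -0.45 to -0.31 with each array left out in turn. It was -0.48 without the 2 extreme arrays, and -0.34 without the arrays carrying Y-linked signal, where the nominal call was lost.

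**Figure D4:**
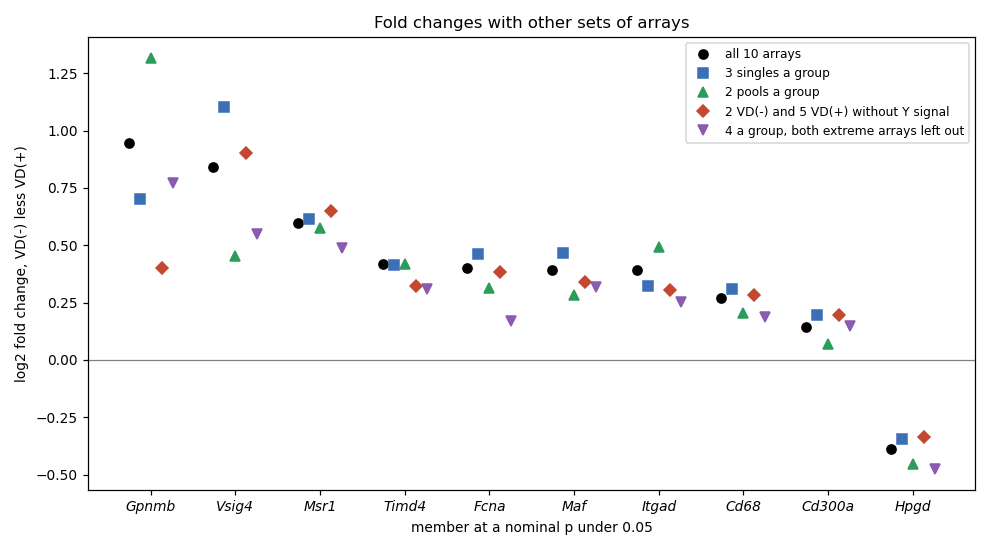
Log2 fold change (y axis, VD(-) less VD(+)) of the 10 macrophage genes with a nominal p under 0.05 in 5 sets of arrays: all 10, the 3 single samples a group, the 2 pools a group, the 2 VD(-) and 5 VD(+) arrays without Y-linked signal, and 4 arrays a group with both extreme arrays left out. No gene crosses 0, Gpnmb runs from 0.40 to 1.32 and Vsig4 from 0.45 to 1.10, and Msr1 stays between 0.49 and 0.65.

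Over the 34 genes, the mean log2 signal per array was 6.70, 6.90, 7.04, 6.94 and 7.06 in the VD(+) arrays and 7.17, 7.04, 7.05, 7.36 and 7.10 in the VD(-) arrays. Leaving aside VD(-) pool 1 and VD(+) replicate 1, the remaining arrays spanned 6.90 to 7.06 in VD(+) and 7.04 to 7.17 in VD(-), so the groups overlapped at their edge. Marrow stroma followed a like order: the mean of 15 stromal and osteoblast genes was 6.27, 6.35, 6.60, 6.38 and 6.69 in the VD(+) arrays and 6.66, 6.52, 6.45, 6.97 and 6.64 in the VD(-) arrays, again lowest in VD(+) replicate 1 and highest in VD(-) pool 1. Of these 15 genes, 2 had a nominal call upward and none downward, against 4.05% and 2.95% of all genes, with a median of 0.19. The most abundant were Cxcl12 (0.24), Sparc (0.39) and Adipoq (0.53). The mean of 9 osteoclast genes was also lowest in VD(+) replicate 1 (5.36) and highest in VD(-) pool 1 (5.998), with 2 genes higher and none lower and a median of 0.079. The part of stroma and osteoclasts in the macrophage genes was not tested.

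No other marker list was both lowest in VD(+) replicate 1 and highest in VD(-) pool 1. The endothelial mean was highest in VD(-) pool 1 (5.60) and lowest in VD(+) replicate 2 (5.35), with 5.39 in VD(+) replicate 1. The B cell mean was highest in VD(-) pool 1 and lowest in VD(-) replicate 3. The nominal counts that follow stand against 4.05% of all genes higher and 2.95% lower. Monocyte genes, with a mean between 7.69 and 7.88 in VD(+) and between 7.76 and 7.88 in VD(-) marrow, had 1 higher and 1 lower of 9 and a median of 0.049. B cell genes had none higher and 4 lower of 12, with a median of -0.25. Their mean was between 6.75 and 7.13 in VD(+) and between 6.29 and 7.44 in VD(-) marrow. Of the 4, Fcer2a (-0.58; adjusted p = 0.0305) also passed an adjusted p under 0.05, which 0.0903% of all genes passed. Every VD(-) array of Fcer2a lay below every VD(+) array, against 0.632% of all genes. Neutrophil genes had none of 14 with a nominal call and a median of -0.034, erythroid genes 1 higher of 12 and a median of -0.010, and dendritic cell genes 2 higher and 2 lower of 12 and a median of -0.10. None of 11 T and NK cell genes, 7 megakaryocyte genes, 12 endothelial genes or 9 stem and progenitor cell genes had a nominal call, with medians of 0.10, -0.13, 0.071 and -0.061.

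The other genes of the same pathways were set beside the members. Their nominal counts stand against 4.05% of all genes higher and 2.95% lower. Of 32 further efferocytosis genes none had a nominal call upward and 2 had one downward, with a median log2 fold change of -0.0077. The lower genes were Rubcn, which LC3-associated phagocytosis requires (-0.26; adjusted p = 0.550), and Dnase2a, which digests engulfed DNA (-0.20; adjusted p = 0.683). Next in order of p were Stab1, a scavenger receptor (0.20; adjusted p = 0.722), and Itgb3, the integrin beta 3 chain (-0.30; adjusted p = 0.742). The median of this list thus lay near that of all genes.

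Of 25 further genes of iron and heme recycling 2 were higher and 1 was lower, with a median of 0.034. Slc25a37, mitoferrin 1, which carries iron into the mitochondria of red cell precursors, was 10.43 to 10.88 in the VD(+) arrays and 10.04 to 10.50 in the VD(-) arrays (-0.38; adjusted p = 0.477). The higher genes were Ftl1, the ferritin light chain (0.14; adjusted p = 0.683), and Blvra, biliverdin reductase, which acts after heme oxygenase (0.26; adjusted p = 0.704). Cp, ceruloplasmin, which oxidises exported iron, was 0.38 (adjusted p = 0.730).

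Of 23 further complement genes 5 were higher and 2 were lower, with a median of 0.045. Cd59a, an inhibitor of the membrane attack complex, was 7.004, 6.74, 7.62, 6.85 and 7.72 in the VD(+) arrays and 6.33, 6.54, 6.52, 6.83 and 6.65 in the VD(-) arrays (-0.61; adjusted p = 0.542). VD(-) pool 1 overlapped VD(+) replicate 2 in this gene. C3ar1, the receptor for the fragment C3a, was 5.28 to 6.07 in the VD(+) arrays and 5.85 to 6.005 in the VD(-) arrays (0.32; adjusted p = 0.651). Cfp, properdin, which stabilises the alternative pathway convertase, was 0.22 higher (adjusted p = 0.649), and C1qbp, a mitochondrial protein that also binds C1q, was 0.19 higher (adjusted p = 0.602).

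Of 12 genes regulated by LXR none had a nominal call, and the median was -0.013. Their mean was lowest in VD(+) replicate 1 (6.922), with VD(-) replicate 2 beside it (6.929). It was highest in VD(-) pool 1 (7.203), with VD(+) pool 2 beside it (7.201). Both extremes were thus near ties with an array of the other group. The smallest p-values belonged to Abcg1, a cholesterol exporter (-0.19; adjusted p = 0.799), Lpl, lipoprotein lipase (0.35; adjusted p = 0.805), Mylip (-0.19; adjusted p = 0.805) and Srebf1 (-0.12; adjusted p = 0.805). Of 18 other regulators and growth factors of macrophages 1 was higher and none was lower, with a median of 0.021. That gene was Tfec, a macrophage-restricted factor of the MITF family, at 7.47, 7.70, 7.62, 7.65 and 7.56 in the VD(+) arrays and 7.96, 8.15, 7.76, 7.89 and 8.02 in the VD(-) arrays. Every VD(-) array lay above every VD(+) array, and the log2 fold change of Tfec was 0.36 (SE 0.083; adjusted p = 0.272). Csf1, the growth factor itself (0.22; adjusted p = 0.741), Zeb2 (0.16; adjusted p = 0.754) and Id1 (0.18; adjusted p = 0.760) followed.

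**Figure D5:**
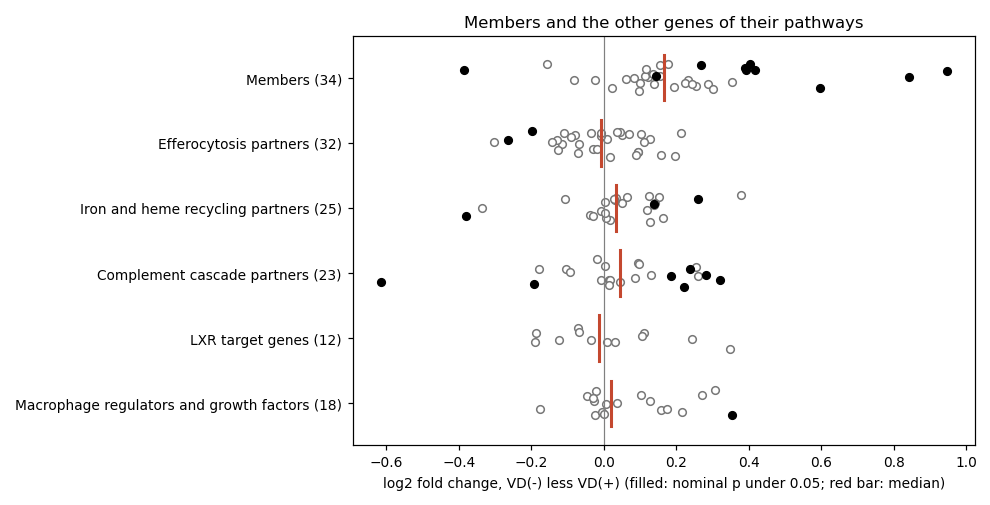
Log2 fold change (x axis, VD(-) less VD(+)) of every measured gene in the 34 macrophage genes (the row named Members) and in the 5 lists of other pathway genes, with the number measured in brackets, filled symbols for a nominal p under 0.05 and a red bar for the median. The median is 0.17 in the macrophage genes and lies between -0.013 and 0.045 in the other lists.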

How the data were processed

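RNA of 10 marrow samples was hybridised to a whole-transcript mouse gene array. Per the labels, the authors made the deposited log2 values with RMA in Partek, 1 value for each of 35556 probe sets and array. The table holds no detection calls, and neither a genome build nor the filters behind it are stated. The number of arrays, and not a read depth, limits the precision. Array annotation gave exactly 1 gene symbol to 21789 probe sets, several to 1621 and none to 12146. VD(-) and VD(+) arrays were compared with limma 3.58.1 (lmFit and eBayes, R 4.3.3) without covariates, two-sided, with Benjamini-Hochberg adjustment over all 35556 probe sets. The exact permutation test took all 252 splits of 5 arrays against 5. The fit was tested on simulated data. The alternatives were the methods' t-test, a filter on dim probe sets, cyclic loess, trended and robust variances, pools or single samples alone or as a covariate, the Y-linked and Xist signal, the mean of a gene's probe sets, blocking by replicate number, and each array left out. Leaving out both extreme arrays was added after seeing the data. Every measured member is named, with the 4 smallest p-values of each pathway list and up to 3 abundant genes of marker lists a result turns on. Fcer2a is also named, as the 1 B cell marker past an adjusted p under 0.05. Members and lists were chosen with earlier results of these data known. Promoters came from RefSeq (GRCm38.p6).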

Additional observations from a re-analysis of the deposited data

Results flagged for a closer look

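In 5 of the 68 sets of 5 values (34 genes in each group), 1 array was far from the other 4 by Dixon's criterion, where chance gives about 5% of sets. In 4 of these the array was VD(+) replicate 1 and its value was low. It was 8.46 for Cd68 (the nearest array 8.72), 10.03 for Vcam1 (nearest 10.40), 8.22 for Mrc1 (nearest 8.76) and 7.44 for Fcna (nearest 8.15). The fifth was VD(-) replicate 3, high for Cd300a at 7.85 (nearest 7.70).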

How the results depend on the processing

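None of the 10 genes with a nominal call changed direction under any alternative run. Against 9 genes higher at a nominal p under 0.05, the single samples alone gave 5 (1.84% of all genes), the pools alone 5 (1.9%) and the arrays without Y-linked signal 4 (3.08%). Against 1 gene lower, the single samples gave 0 (1.63% of all genes). The Y-linked and Xist covariate (3.33%) and the removal of both extreme arrays (2.46%) gave 2 each. Of the 10 nominal calls, 7 were lost in the arrays without Y-linked signal and 5 with the Y-linked and Xist covariate. The former fit had only 2 VD(-) arrays and was less precise. In the arrays without Y-linked signal, Siglec1 was among the 4 higher genes, and the 1 lower gene was Cd5l and not Hpgd. With the pools alone, 14 genes had every VD(-) array above every VD(+) array, against 18.7% of all genes in these 2 arrays a group. The median stayed above 0, between 0.052 and 0.24, and no alternative gave an adjusted p under 0.05 for any of the 34 genes. With the replicate number as a replicate block, 8 genes were higher and 1 lower (3.51% and 2.67% of all genes), and the median was 0.17. Same-numbered arrays did not deviate together (correlations from -0.052 to 0.061), so the numbers were taken as names only, and 1 of 5 numbers correlated best with its own partner.

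Values on the other side of 0 belonged to genes without a nominal call, and the cause was not tested. Cyclic loess gave Csf1r -0.00192. The pools alone gave Siglec1 -0.00476, Clec7a -0.0859, Marco -0.0731 and Cd5l 0.0615. The Y-linked and Xist covariate gave Sirpa 0.0655, Spic -0.0136, Cd163 -0.0689, Mrc1 -0.103, Mertk -0.235, Gas6 -0.0928, C1qa -0.0676, C1qc -0.0648 and Lpl -0.159. The arrays without Y-linked signal gave Sirpa 0.0702, Cd163 -0.0673, Mrc1 -0.0541, Mertk -0.209, Gas6 -0.119, C1qa -0.0499, C1qc -0.0415 and Lpl -0.19. With both extreme arrays left out the values were Sirpa 0.0278, Cd163 -0.0163, Mrc1 -0.0233, Mertk -0.104 and C1qa -0.00827. With each array left out in turn, Sirpa ran from -0.0497 to 0.00596 (above 0 without VD(-) pool 1), Mertk from -0.0258 to 0.187 (below 0 without VD(-) pool 1) and Cd5l from -0.291 to 0.0556 (above 0 without VD(-) replicate 2).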
